A study of Homo sapiens with 9 samples.

Results

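The 59 genes described here encode proteins of mitosis and of the G2 to M transition, and were taken by name from a list of such genes, out of 58735 gene identifiers in the count table. All 59 were found and all 59 passed the filter on low counts, among 14975 genes tested. They were grouped by role into 9 sets, from the cyclins and CDK1 to cytokinesis. RNA came from THP-1, a human acute myeloid leukaemia line that carries the MLL-AF9 fusion. Cells received shRNA-143 or shRNA-146, a pair of constructs against the transcription factor gene NFATC2, or a non-targeting control shRNA, with 3 libraries in each group. Every group, control included, was spinoculated with lentivirus produced in 293T cells, put under puromycin from 24 h and harvested at 48 h after spinoculation. All results are thus from a single line at a single time, and a smaller share of cells in G2 and M cannot be told apart from less RNA per such cell.

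Entry into mitosis is driven by CDK1 bound to a B-type cyclin, and exit by the anaphase promoting complex, a ubiquitin ligase that marks cyclin B and securin for destruction. In between, the kinetochore, the spindle and the chromosomal passenger complex attach and align chromosomes, and a checkpoint delays anaphase until attachment is complete. Many of these genes are transcribed together late in the cycle. The MuvB complex, with B-MYB and FOXM1, binds their promoters at the cell cycle genes homology region (CHR), often beside CCAAT boxes bound by NF-Y.

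Promoter sequences are shown because these motifs were common among the genes described, a property that their selection did not use. RefSeq promoters (GRCh38.p14, 250 bases before to 50 after a start) were matched for 51 of the 59 genes, with 65 starts in all. AURKA, BIRC5, BUB3, CDCA2, PIMREG, RACGAP1, TPX2 and TTK were not matched. The CHR letters TTTGAA, on either strand, stood in 39 of the 65 promoters (60%), against 15.2% of all 35116 promoters in the table. Between 60 bases before and 30 after the start they stood in 30 (46.2%), against 4.21% of all promoters. CCAAT on either strand stood in 48 (73.8%), against 34.6% of all. Both motifs stood together in 32 (49.2%), against 5.9% of all. The CHR-like letters TTCGAA were in 6 (9.23%), against 1.45% of all, and the E2F letters TTCGCGC or TTGGCGC were in 9 (13.8%), against 5.06% of all. Windows of 120 bases before to 30 after the start follow for 5 genes, with TTTGAA and its reverse complement TTCAAA, and likewise CCAAT and ATTGG, in capitals. CDK1, CDCA8 and ANLN passed a test described later, and PLK1 and CCNB2 did not. CDK1 has 2 starts in the table, of which the one shown is the downstream one.
CDK1, chr10:60778358-60778507, plus strand: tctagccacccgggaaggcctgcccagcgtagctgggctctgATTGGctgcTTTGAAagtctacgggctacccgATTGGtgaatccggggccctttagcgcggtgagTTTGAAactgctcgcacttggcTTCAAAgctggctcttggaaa
CCNB2, chr15:59105026-59105175, plus strand: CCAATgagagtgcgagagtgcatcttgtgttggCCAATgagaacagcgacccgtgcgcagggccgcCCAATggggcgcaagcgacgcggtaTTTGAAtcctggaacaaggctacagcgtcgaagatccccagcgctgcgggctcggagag
PLK1, chr16:23678769-23678918, plus strand: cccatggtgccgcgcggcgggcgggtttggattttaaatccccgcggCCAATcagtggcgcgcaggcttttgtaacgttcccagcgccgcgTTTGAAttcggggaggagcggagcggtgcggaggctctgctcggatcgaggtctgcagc
CDCA8, chr1:37692396-37692545, plus strand: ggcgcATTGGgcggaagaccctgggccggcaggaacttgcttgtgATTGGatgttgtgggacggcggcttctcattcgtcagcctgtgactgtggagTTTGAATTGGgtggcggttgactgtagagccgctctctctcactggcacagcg
ANLN, chr7:36389742-36389891, plus strand: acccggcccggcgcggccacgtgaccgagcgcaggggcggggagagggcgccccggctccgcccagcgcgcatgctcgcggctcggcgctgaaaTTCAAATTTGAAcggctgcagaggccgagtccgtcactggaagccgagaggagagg
In CDCA8 the TTTGAA and an ATTGG share a base, and in ANLN a TTCAAA and a TTTGAA lie side by side. The ANLN window held no CCAAT. A match of letters is a description and shows no binding.

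NFATC2, the target, was lower in every knockdown library. It had 1.49, 7.40 and 6.95 CPM (counts scaled to library size after TMM) in shRNA-143 replicates 1 to 3 and 2.59, 6.71 and 9.43 CPM in shRNA-146 replicates, against 12.7, 27.6 and 27.4 CPM in control replicates. Its log2 fold change was -2.27 ± 0.24 with shRNA-143 and -1.96 ± 0.23 with shRNA-146 in the fit with replicate number as a block, with adjusted p of 0.00168 and 0.00435 from edgeR's quasi-likelihood test. Without the block the values were -2.09 and -1.85 and did not pass. Libraries held 40047459 to 44669709 counts. Libraries with the same replicate number deviated alike across groups, and each comparison is therefore given without and with the block. Log2 fold changes below are from the fit with the block, ± SE with n = 3 libraries per group, unless stated otherwise. Of 14 myeloid markers, 11 were above 1 CPM in all libraries, and their summed level was 1383 to 1659 CPM in shRNA-143, 1447 to 1565 CPM in shRNA-146 and 1380 to 1575 CPM in control libraries. B lymphocyte markers, of which 2 of 5 were above 1 CPM in all libraries, summed to 29.1 to 42.3 CPM with shRNA-143, 25.8 to 46.0 CPM with shRNA-146 and 25.2 to 31.2 CPM in control. T and NK markers, of which 1 of 7 was above 1 CPM in all and 4 were at 0, summed to 10.6 to 18.5, 12.9 to 13.1 and 15.6 to 26.2 CPM in that order. Erythroid, epithelial and fibroblast markers had none above 1 CPM in all libraries and summed to at most 1.59, 0.152 and 3.03 CPM in any library. The part of other cell types in the results was not tested.

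As a group the mitotic genes stayed near their control level with both shRNAs, though the measures below differed in direction. The mean summed level, in which the highest genes weigh most, was below control, with groups overlapping, while the median fold change was positive. The summed level of the 59 was 5242 ± 186 CPM in shRNA-143 libraries, 5383 ± 176 CPM in shRNA-146 libraries and 5500 ± 72.5 CPM in control libraries (SD, n = 3 each). Without the block, the median log2 fold change over the 59 genes was 0.059 with shRNA-143 and 0.12 with shRNA-146, where the medians of all tested genes were 0.021 and 0.052. With the block the medians were 0.0029 and 0.078, where those of all tested genes were 0.0045 and 0.022. Of the 59, 33 had a positive value with shRNA-143 and 41 with shRNA-146, without the block. Of the 14975 tested genes, 7818 and 8297 had a positive value in that fit.

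Few single genes passed the test. Without the block, 0 of 59 passed an adjusted p of 0.05 in edgeR with shRNA-143, where 0.0467% of all tested genes did, and 0 of 59 with shRNA-146, where 0.0334% did. An unadjusted p under 0.05 was reached by 7 (11.9%, beside 6.8% of all genes) and 5 (8.47%, beside 8.81%). With the block it was reached by 12 (20.3%, beside 20.7%) and 17 (28.8%, beside 23.5%). DESeq2 and limma-voom without the block also called 0 of 59 in both comparisons, beside 0.942% and 1.05% of all genes in DESeq2 and 0.0334% and 0.0267% in limma-voom. An unadjusted p under 0.05 was reached there by 7 and 7 genes in DESeq2, beside 7.93% and 10.2% of all genes, and by 6 and 6 in limma-voom, beside 6.84% and 8.92%. With the block, 3 of 59 passed in edgeR with shRNA-143 (CDK1 and BIRC5 lower, ANLN higher), beside 3.17% of all genes, 1.57% lower and 1.6% higher. With shRNA-146, 2 passed (AURKA lower, PIMREG higher), beside 4.42% of all genes, 1.96% lower and 2.46% higher. For the mean of both shRNAs, 0 passed without the block (0.0334% of all genes passing, with 7 of 59 at an unadjusted p under 0.05, beside 9.34% of all genes) and 5 with it (AURKA, BIRC5 and CDCA8 lower, ANLN and PIMREG higher), beside 5.74% of all genes, 2.75% lower and 2.98% higher. As shares of the 59, the 3, 2 and 5 called with the block are 5.08%, 3.39% and 8.47%, and nothing about the mitotic genes in particular is read from counts this small. DESeq2 with the block called more, 8, 5 and 9 of the 59 in the same order (13.6%, 8.47% and 15.3%), beside 6.75%, 9.35% and 10.8% of all genes. In limma-voom with the block these were 3, 3 and 5, beside 3.13%, 4.73% and 5.52%. Calls of single genes below are from edgeR. Both shRNA comparisons share the same control libraries. The authors' deposited tables list 0 of the 59 at an adjusted p under 0.05, beside 139 of 23828 genes for shRNA-143 and 60 of 23854 for shRNA-146. The authors' lowest adjusted p among the 59 was 0.0628 for shRNA-143 and 0.369 for shRNA-146.

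**Figure D1:**
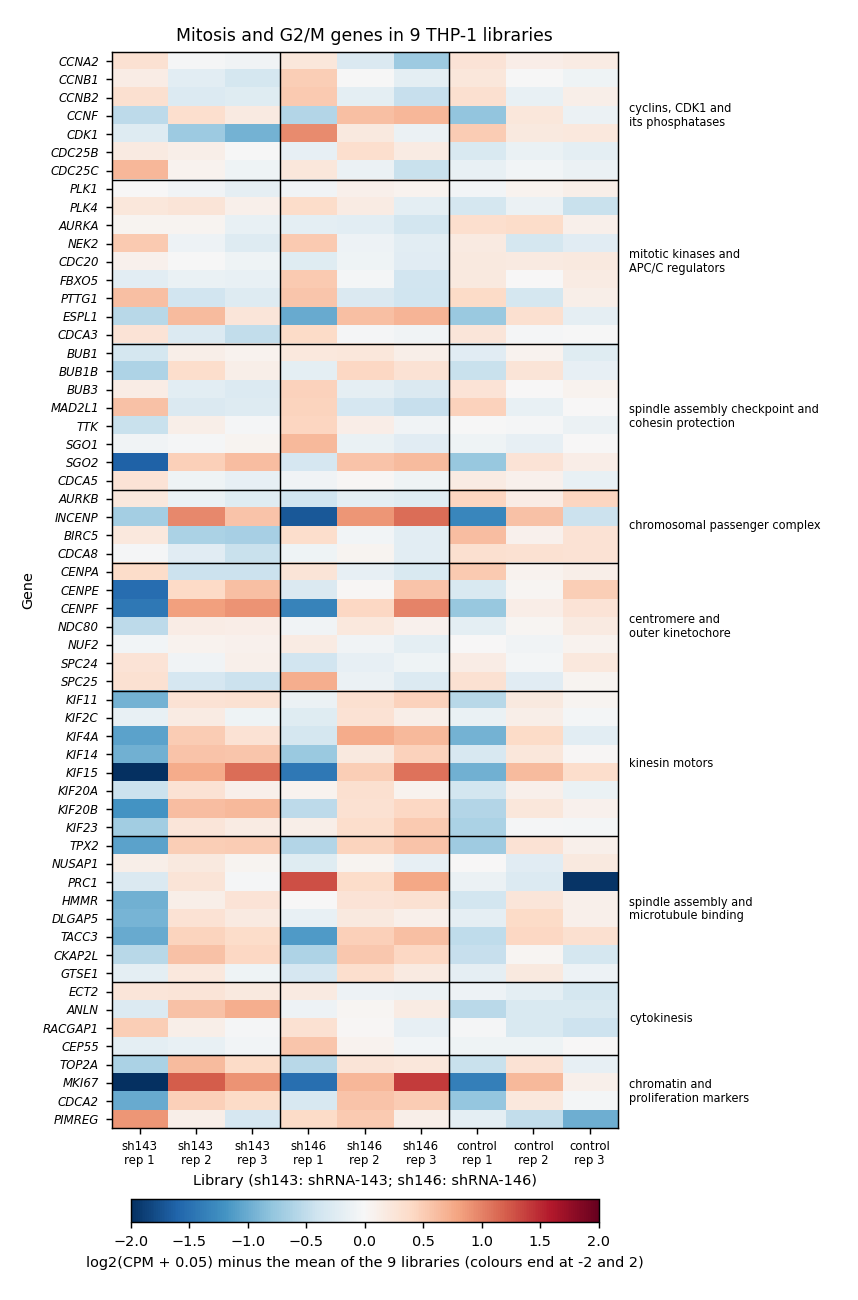
Level of the 59 mitosis and G2/M genes (rows, by role) in 9 libraries (columns, shRNA-143, shRNA-146 and control from left to right), as log2(CPM + 0.05) minus the mean of the 9 libraries, with colours ending at -2 and 2. MKI67, KIF15, CENPF and INCENP are lower in replicate 1 than in replicates 2 and 3 of each group. For MKI67, KIF15 and INCENP the groups differ less than the replicate numbers do, and for AURKA, CDC20 and CDCA8 they differ more.

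Among the cyclins, CDK1 and its phosphatases, CDK1 had the lowest fold change with shRNA-143. CDK1 (chromosome 10, 60778331 to 60794852, plus strand, hg38), the kinase that starts mitosis, had 129, 92.9 and 80.3 CPM in shRNA-143 replicates 1 to 3, 295, 176 and 142 CPM in shRNA-146 replicates, and 218, 176 and 179 CPM in control replicates. All shRNA-143 libraries were below all control and all shRNA-146 libraries, while shRNA-146 and control libraries overlapped. Within a replicate number the shRNA-143 level was 59.0%, 52.9% and 44.8% of control, and the shRNA-146 level 135%, 100.3% and 79.5%. The log2 fold change was -0.95 ± 0.15 with shRNA-143 (adjusted p = 0.00989 in edgeR, against 0.527 without the block) and 0.036 ± 0.15 with shRNA-146 (adjusted p = 0.914). In the direct comparison of shRNA-146 with shRNA-143, CDK1 was higher by 0.99 ± 0.15 (adjusted p = 0.00988 in edgeR), the 1 of 59 that passed there, beside 1.2% of all genes in either direction and 0.775% higher. Without the block that difference was 1.02 ± 0.29 and 0 of 59 passed in edgeR (0.0467% of all genes passing), with 1 of 59 at an unadjusted p under 0.05 (beside 3.75% of all genes), as in DESeq2 (4.34%) and limma-voom (3.83%). The call with shRNA-143 held in 4 of 9 fits that left out a library and ended without control replicate 2 or 3 or any shRNA-143 replicate (adjusted p 0.0607 to 0.0878). The call between the shRNAs held in 5 of 9, and ended without any shRNA-143 replicate or shRNA-146 replicate 2 (0.0517 to 0.091).

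The partners of CDK1 did not share the size of its fold change with shRNA-143. CCNB1, the B-type cyclin that activates CDK1, had 193, 150.1 and 135 CPM in shRNA-143 replicates, 243, 172 and 152 CPM in shRNA-146 replicates, and 202, 173 and 163 CPM in control replicates. Its groups overlapped, and the log2 fold change was -0.18 ± 0.12 with shRNA-143 and 0.052 ± 0.12 with shRNA-146. CCNB2, a further B-type cyclin, had -0.17 ± 0.15 and -0.14 ± 0.15. CCNA2, cyclin A2, which acts from S phase to early mitosis, had 324, 256 and 248 CPM in shRNA-143 replicates, 306, 214 and 158 CPM in shRNA-146 replicates, and 314, 285 and 294 CPM in control replicates. The lowest CCNA2 values were those of shRNA-146 replicates 2 and 3, and its log2 fold change with shRNA-146 was -0.45 ± 0.16 (adjusted p = 0.124 in edgeR). CDC25B, a phosphatase that activates CDK1, was higher in all shRNA-143 libraries than in all control libraries. It had 59.2, 57.3 and 52.4 CPM with shRNA-143, 47.0, 66.6 and 58.7 CPM with shRNA-146, and 42.5, 47.7 and 45.9 CPM in control, and did not pass in edgeR. CDC25C and CCNF did not pass there either. With shRNA-143, CCNB1 and CCNB2 were below control within all 3 replicate numbers, as were 26.9% of all genes. CDC25B, CDC25C and CCNF were above control within all 3, as were 26.8% of all genes. CCNB1 was higher with shRNA-146 than with shRNA-143 within all 3, as were 17.8% of all genes.

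Of the mitotic kinases and regulators of the anaphase promoting complex, AURKA was the one called in the edgeR fit with the block. AURKA, the kinase that matures centrosomes (chromosome 20, 56369389 to 56392337, minus strand), had 130.2, 130.1 and 114 CPM in shRNA-143 replicates, 109.9, 109 and 97.7 CPM in shRNA-146 replicates, and 158, 163 and 135 CPM in control replicates. All 6 knockdown libraries were below all 3 control libraries. Its log2 fold change was -0.28 ± 0.12 with shRNA-143 (adjusted p = 0.197), -0.53 ± 0.12 with shRNA-146 (adjusted p = 0.0344) and -0.41 ± 0.10 for the mean of both (adjusted p = 0.0411), all from edgeR. The shRNA-146 call held in 2 of 9 fits that left out a library, without shRNA-143 replicate 1 or shRNA-146 replicate 1, and the call for the mean likewise in 2 of 9, without shRNA-146 replicate 1 or 3. Both ended under library size scaling alone and under a gene length correction. CDC20, which activates the anaphase promoting complex and was the highest of the 59 per length (423 ± 3.04 CPM per kilobase in control, SD, n = 3), had 804, 752 and 709 CPM in shRNA-143 replicates, 637, 709 and 646 CPM in shRNA-146 replicates, and 868, 856 and 862 CPM in control replicates. Its 6 knockdown libraries also lay below all control libraries, with log2 fold changes of -0.19 ± 0.12 and -0.38 ± 0.12 that did not pass (adjusted p = 0.409 and 0.105 in edgeR). PLK1, the kinase that acts from mitotic entry to cytokinesis, had 172, 162 and 149.7 CPM in shRNA-143 replicates, 162, 183 and 179.8 CPM in shRNA-146 replicates, and 164, 179 and 186 CPM in control replicates. These groups overlapped, at -0.13 ± 0.13 and -0.011 ± 0.13. PLK4, which starts centriole duplication, had 52.7, 53.9 and 48.6 CPM in shRNA-143 replicates, 58.2, 50.3 and 39.4 CPM in shRNA-146 replicates, and 35.5, 41.4 and 33.1 CPM in control replicates, and did not pass (0.50 ± 0.14 and 0.42 ± 0.14, adjusted p = 0.0828 and 0.111 in edgeR).

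In the chromosomal passenger complex, which corrects wrong attachments at the centromere and then acts at the midbody, 3 of the 4 subunits had lower values than control with both shRNAs. With the block, 7564 of all 14975 tested genes were positive with shRNA-143 and 7833 with shRNA-146, and 4 subunits are too few to read as a set. BIRC5, survivin (chromosome 17, 78214186 to 78225636, plus strand), had 362, 203 and 199 CPM in shRNA-143 replicates, 401, 302 and 271 CPM in shRNA-146 replicates, and 482, 334 and 385 CPM in control replicates. Groups overlapped, since replicate 1 was the highest library in each, but within every replicate number both knockdown libraries were below control. The log2 fold change was -0.69 ± 0.14 with shRNA-143 (adjusted p = 0.0280, against 0.710 without the block), -0.31 ± 0.14 with shRNA-146 (adjusted p = 0.214) and -0.50 ± 0.12 for the mean (adjusted p = 0.0372), from edgeR. CDCA8, borealin, had 59.4, 51.5 and 44.4 CPM in shRNA-143 replicates, 56.6, 62.7 and 52.1 CPM in shRNA-146 replicates, and 75.3, 74.6 and 73.5 CPM in control replicates. All knockdown libraries were below all controls, with -0.53 ± 0.13 and -0.39 ± 0.13 for each shRNA (adjusted p = 0.0571 and 0.117) and -0.46 ± 0.11 for the mean (adjusted p = 0.0430), from edgeR. AURKB, the kinase of the complex, had 73.7, 58.1 and 53.6 CPM in shRNA-143 replicates, 48.4, 55.3 and 53.4 CPM in shRNA-146 replicates, and 85.0, 70.0 and 85.2 CPM in control replicates. It stood just outside the threshold, at -0.61 ± 0.15 with shRNA-146 (adjusted p = 0.0510) and -0.49 ± 0.13 for the mean (adjusted p = 0.0519, edgeR). INCENP, the scaffold of the complex, had 15.1, 47.4 and 35.9 CPM in shRNA-143 replicates, 7.44, 44.5 and 52.5 CPM in shRNA-146 replicates, and 9.78, 36.3 and 17.9 CPM in control replicates. Its level followed the replicate number more than the group, at 0.64 ± 0.29 and 0.54 ± 0.30 (adjusted p = 0.242 and 0.302, edgeR). The BIRC5 call with shRNA-143 held in 3 of 9 fits that left out a library, all 3 of them without a shRNA-146 library, and ended without any control or shRNA-143 library. For the mean, BIRC5 and CDCA8 each held in 3 of 9, without shRNA-143 replicate 1 or shRNA-146 replicate 1 or 3, and ended under library size scaling alone, as CDCA8 also did under the gene length correction.

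**Figure D2:**
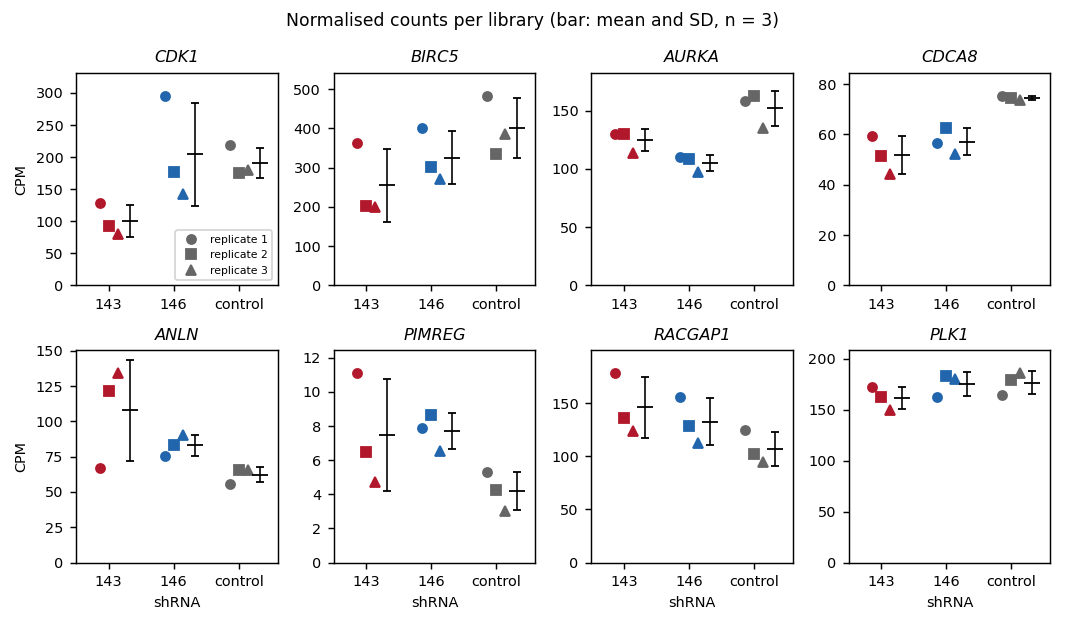
CPM (y axis, from 0) of 8 genes in shRNA-143, shRNA-146 and control libraries, with a symbol for each replicate number and bars for the mean and SD (n = 3). All 6 knockdown libraries lie below the controls for AURKA and CDCA8 and above them for ANLN, CDK1 is low with shRNA-143 alone, and PLK1 overlaps between groups.

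Cytokinesis genes had higher values with both shRNAs in 3 of 4 cases. ANLN, anillin, the scaffold of the contractile ring (chromosome 7, 36389806 to 36453791, plus strand), had 67.1, 122 and 134 CPM in shRNA-143 replicates, 75.4, 83.3 and 90.5 CPM in shRNA-146 replicates, and 55.9, 65.3 and 65.9 CPM in control replicates. All 6 knockdown libraries were above all 3 controls. The log2 fold change was 0.75 ± 0.17 with shRNA-143 (adjusted p = 0.0381, against 0.531 without the block), 0.41 ± 0.17 with shRNA-146 (adjusted p = 0.161) and 0.58 ± 0.15 for the mean (adjusted p = 0.0451), from edgeR. RACGAP1, part of the centralspindlin complex, had 178, 136 and 124 CPM in shRNA-143 replicates, 156, 129 and 113 CPM in shRNA-146 replicates, and 124, 102 and 94.5 CPM in control replicates. Within each replicate number both shRNAs were above control, but RACGAP1 did not pass (0.44 ± 0.12 and 0.31 ± 0.12, adjusted p = 0.0676 and 0.144 in edgeR). ECT2, the exchange factor that activates RhoA at the division site, had 76.2, 77.4 and 74.2 CPM in shRNA-143 replicates, 73.2, 59.9 and 59.5 CPM in shRNA-146 replicates, and 60.3, 56.1 and 50.4 CPM in control replicates. The shRNA-143 libraries were above all controls, at 0.45 ± 0.13 (adjusted p = 0.0812, edgeR). CEP55, an abscission factor, had -0.079 ± 0.16 and 0.26 ± 0.16. The ANLN calls each held in 3 of 9 fits that left out a library, and ended without any control replicate, shRNA-143 replicate 2 or 3, or shRNA-146 replicate 2. The call for the mean also ended under upper quartile scaling and the gene length correction.

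No gene of the spindle checkpoint, kinetochore, kinesin or spindle assembly sets passed in edgeR, with or without the block. BUB1, a checkpoint kinase at kinetochores, had 93.5, 129 and 125 CPM in shRNA-143 replicates, 138, 139.6 and 129.5 CPM in shRNA-146 replicates, and 102, 124 and 101 CPM in control replicates. All its shRNA-146 libraries were above control, at 0.32 ± 0.14 (adjusted p = 0.191, edgeR). NDC80, which binds microtubules in the outer kinetochore, had 22.0, 35.1 and 34.9 CPM in shRNA-143 replicates, 30.2, 36.7 and 33.6 CPM in shRNA-146 replicates, and 27.9, 32.7 and 36.1 CPM in control replicates. These groups overlapped, and its log2 fold changes were -0.091 ± 0.14 and 0.059 ± 0.14. CENPA, the histone H3 variant of centromeres, had -0.40 ± 0.14 and -0.31 ± 0.14 and was below control in all 3 replicate numbers with each shRNA, but did not pass (adjusted p = 0.137 and 0.203, edgeR).

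The 8 kinesins had log2 fold changes with shRNA-146 from -0.031 for KIF14 to 0.60 for KIF4A, with 7 of 8 positive and a median of 0.22, where the median of all tested genes was 0.022. KIF4A, a chromosome-bound kinesin, had 5.28, 15.8 and 13.6 CPM in shRNA-143 replicates, 8.68, 18.6 and 17.5 CPM in shRNA-146 replicates, and 5.76, 14.5 and 9.61 CPM in control replicates (adjusted p with shRNA-146 = 0.0721, edgeR). KIF23, the motor of centralspindlin, was higher in all shRNA-146 libraries than in all control libraries and had 0.57 ± 0.15 (adjusted p = 0.0564, edgeR). KIF11, the motor that separates spindle poles, had 36.3, 85.3 and 86.6 CPM in shRNA-143 replicates, 64.3, 87.4 and 96.01 CPM in shRNA-146 replicates, and 47.8, 79.8 and 72.3 CPM in control replicates. KIF11 and KIF20A, a cytokinetic kinesin, were near control with shRNA-143, at 0.00028 ± 0.17 and 0.12 ± 0.14. TPX2, which activates AURKA on the spindle, had 72.6, 216 and 217 CPM in shRNA-143 replicates, 101, 207 and 226 CPM in shRNA-146 replicates, and 93.8, 186 and 164 CPM in control replicates, with 0.089 ± 0.16 and 0.24 ± 0.16. In TPX2, as in KIF11, the gap between replicate 1 and the others exceeded the gap between groups.

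**Figure D3:**
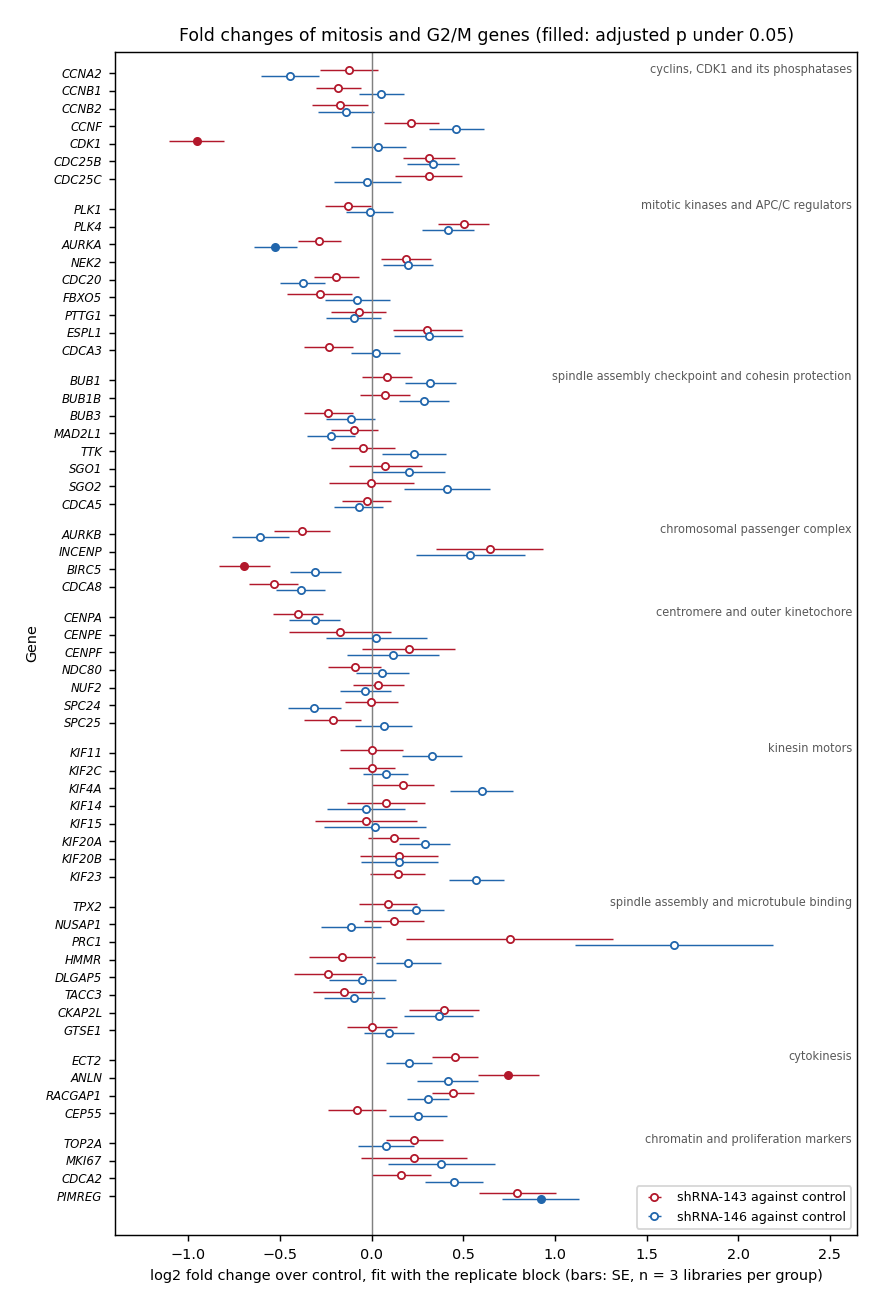
Log2 fold change over control (x axis) of each of the 59 genes (rows, by role) for shRNA-143 and shRNA-146, from the fit with the replicate block, with bars of 1 SE (n = 3 libraries per group). Filled points have an adjusted p under 0.05: CDK1, BIRC5 and ANLN for shRNA-143, AURKA and PIMREG for shRNA-146.

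The proliferation markers MKI67 and TOP2A had positive fold changes with both shRNAs and overlapped with control. MKI67, which coats mitotic chromosomes and is used to mark cycling cells, had 14.2, 136 and 110.1 CPM in shRNA-143 replicates, 20.7, 92.8 and 154 CPM in shRNA-146 replicates, and 22.6, 92.1 and 63.1 CPM in control replicates. TOP2A, the topoisomerase that disentangles chromosomes, had 164, 395 and 333 CPM in shRNA-143 replicates, 174, 306 and 298 CPM in shRNA-146 replicates, and 187, 311 and 227 CPM in control replicates. Neither passed, at 0.23 ± 0.29 and 0.38 ± 0.29 for MKI67 and 0.23 ± 0.15 and 0.078 ± 0.15 for TOP2A. PIMREG, a mitotic gene named for its interaction with the protein PICALM, had 11.1, 6.51 and 4.74 CPM in shRNA-143 replicates, 7.89, 8.63 and 6.56 CPM in shRNA-146 replicates, and 5.28, 4.25 and 3.02 CPM in control replicates. All shRNA-146 libraries were above all controls, and shRNA-143 replicate 3 was within the control range. The log2 fold change was 0.80 ± 0.21 with shRNA-143 (adjusted p = 0.0697), 0.92 ± 0.21 with shRNA-146 (adjusted p = 0.0378) and 0.86 ± 0.19 for the mean (adjusted p = 0.0289), from edgeR. The shRNA-146 call held in 2 of 9 fits that left out a library, without shRNA-143 replicate 1 or shRNA-146 replicate 1, and the call for the mean in 3 of 9, without these or without shRNA-146 replicate 3. Exons of PITPNM3 on the other strand cover 7.3% of the exonic bases of PIMREG.

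Counted by library, genes whose groups did not overlap were about as common as among all genes. With shRNA-143, 4 genes were higher in all libraries than in all controls (CDC25B, PLK4, ECT2 and ANLN), beside 7.09% of all genes, and 5 were lower (CDK1, AURKA, CDC20, FBXO5 and CDCA8), beside 8.11%. With shRNA-146, 5 were higher (BUB1, KIF23, PRC1, ANLN and PIMREG), beside 7.25%, and 5 lower (AURKA, CDC20, AURKB, CDCA8 and SPC24), beside 7.46%. As shares of the 59, these are 6.78% for 4 genes and 8.47% for 5. In all 6 knockdown libraries, 1 was higher (ANLN), beside 3.08%, and 3 were lower (AURKA, CDC20 and CDCA8), beside 2.77%. Between the shRNAs, 3 were higher in all shRNA-146 than in all shRNA-143 libraries (CDK1, BUB1 and PRC1), beside 4.49%, and 4 lower (AURKA, SPC24, NUSAP1 and ECT2), beside 3.69%. Within replicate numbers, 21 of 59 (35.6%) were higher with shRNA-146 in all 3, beside 21.5% of all genes, and 9 were lower, beside 19.8%. With shRNA-143 these were 11 higher, beside 26.8%, and 13 lower, beside 26.9%.

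Per length, in control libraries, the highest of the 59 after CDC20 were CCNA2 at 106 ± 5.16, BIRC5 at 105 ± 19.8, CCNB1 at 70.2 ± 7.99 and PTTG1, securin, at 69.9 ± 17.4 CPM per kilobase (SD, n = 3). CCNA2 and BIRC5, and CCNB1 and PTTG1, did not differ beyond their spread. The lowest were PRC1 at 0.040, CENPE, a kinetochore motor, at 1.28, PIMREG at 1.48, KIF14 at 1.89 and CENPF, a kinetochore protein, at 2.15 CPM per kilobase. PRC1, which bundles the central spindle, had 0.28, 0.44 and 0.35 CPM in shRNA-143 replicates, 0.94, 0.47 and 0.65 CPM in shRNA-146 replicates, and 0.32, 0.28 and 0.054 CPM in control replicates. Its log2 fold changes, from very low counts, were 0.75 ± 0.56 and 1.65 ± 0.54 and did not pass (adjusted p = 0.478 and 0.102, edgeR). In GENCODE release 29, exons of other genes cover 58.4% of its exonic bases, 57.6% on the same strand by AC068831.7, which was itself counted at 0.71 to 2.36 CPM. NUSAP1, a spindle protein at 11.9 to 16.2 CPM, was overlapped over 62.2% of its exonic bases, by AC087721.2 alone and on the same strand. The sources used here do not say how reads in shared exons were counted, so the levels of PRC1 and NUSAP1 are uncertain. Another 22 genes were overlapped over a smaller part.

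The largest spread among these genes ran between replicate numbers. In all 3 groups, 26 of 59 were lower in replicate 1 than in replicates 2 and 3, beside 28.4% of all genes, and 13 were higher, beside 25.9%. KIF15, a spindle motor, had 3.56, 24.8 and 32.1 CPM in shRNA-143 replicates, 5.46, 20.8 and 31.4 CPM in shRNA-146 replicates, and 7.54, 22.8 and 18.8 CPM in control replicates. PTTG1 went the other way, with 203, 102 and 112 CPM in shRNA-143 replicates, 196, 109 and 101 CPM in shRNA-146 replicates, and 174, 104 and 144 CPM in control replicates. The log2 difference of replicate 1 from the mean of replicates 2 and 3 was lower in longer genes. Its median was -0.88 for the 20 genes of 5000 bases or more, -0.10 for the 26 of 3000 to under 5000 bases and 0.40 for the 13 shorter ones. Over all tested genes these medians were -0.20, 0.056 and 0.20. Across genes, which are not independent replicates, Pearson's r with log10 length was -0.62 over the 59 and -0.22 over the 14975, from the same 9 libraries. Gene length thus moved with the replicate number, and its part in the results was not tested beyond the length correction.

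**Figure D4:**
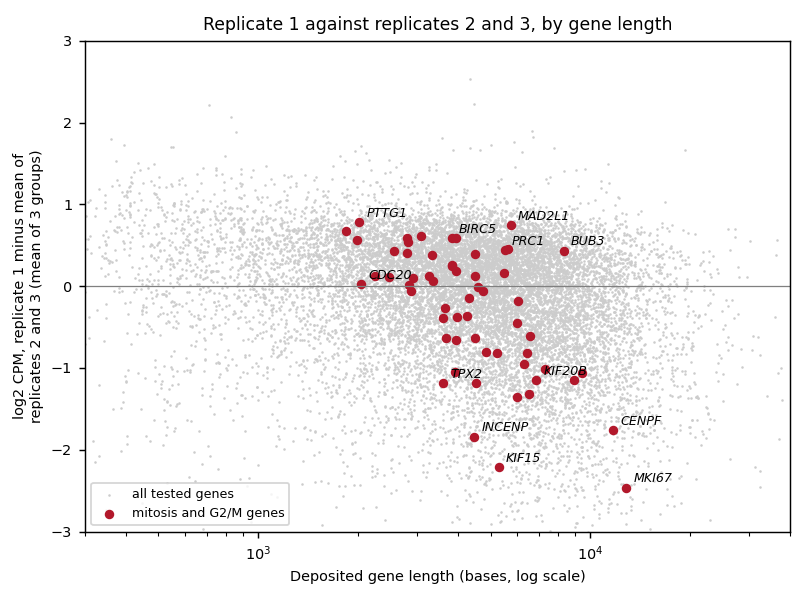
Log2 CPM of replicate 1 minus the mean of replicates 2 and 3, averaged over the 3 groups (y axis), against deposited gene length in bases (x axis, log scale), for the 59 genes in red and all tested genes in grey, of which 154 lie outside the axes. Among the 59, the 20 genes of 5000 bases or more have a median of -0.88 and the 13 genes under 3000 bases a median of 0.40.

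Few genes of other mitosis and G2/M lists, outside the 59, passed. These lists cover anaphase promoting complex subunits, condensin, cohesin, further mitotic entry regulators, and further kinetochore, spindle and cytokinesis proteins. They also cover further G2/M markers, with CCNG2 among them, and G2/M transcription factors. Of their 134 tested genes, 0 passed without the block in edgeR. An unadjusted p under 0.05 was reached there by 5 for shRNA-143 (3.73%, beside 6.8% of all genes) and 7 for shRNA-146 (5.22%, beside 8.81%). With the block, 2 passed for shRNA-143 (1.49%, beside 3.17% of all genes), 1 for shRNA-146 (0.746%, beside 4.42%) and 2 for the mean (1.49%, beside 5.74%). CENPH, a centromere protein, was lower with shRNA-143 (-0.84 ± 0.19, adjusted p = 0.0389) and CCNG2, an unusual cyclin, higher (0.74 ± 0.16, adjusted p = 0.0357). SKA2, a kinetochore protein, was higher with shRNA-146 (0.73 ± 0.18, adjusted p = 0.0484), and for the mean SKA2 (0.68 ± 0.16, adjusted p = 0.0364) and the condensin subunit NCAPD3 (0.50 ± 0.13, adjusted p = 0.0476) were higher, from edgeR. MYBL2, which encodes B-MYB, and FOXM1 did not pass. MYBL2 had 466, 831 and 869 CPM in shRNA-143 replicates, 380.2, 823 and 811 CPM in shRNA-146 replicates, and 465, 837 and 814 CPM in control replicates, and FOXM1 had 0.35 ± 0.13 and 0.23 ± 0.13 (adjusted p = 0.157 and 0.303, edgeR).

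Of 51 genes of DNA replication and G1/S, with the block, 2 passed lower with shRNA-143 (3.92%, beside 1.57% of all genes). With shRNA-146, 1 passed lower (1.96%, as of all genes) and 1 higher (1.96%, beside 2.46%). RRM2, the small subunit of ribonucleotide reductase, had 70.3, 63.2 and 51.8 CPM in shRNA-143 replicates, 215, 159.8 and 136 CPM in shRNA-146 replicates, and 147, 131 and 145 CPM in control replicates. Like CDK1, it was low in shRNA-143 libraries alone, at -1.21 ± 0.15 with shRNA-143 (adjusted p = 0.00288) and 0.24 ± 0.14 with shRNA-146, and higher by 1.45 ± 0.15 in shRNA-146 against shRNA-143 (adjusted p = 0.00109), from edgeR. GINS1, a replicative helicase subunit, had -0.58 ± 0.13 with shRNA-143 (adjusted p = 0.0372, edgeR). With shRNA-146, CHAF1B, a histone chaperone subunit, had -0.68 ± 0.13 (adjusted p = 0.0206) and CCNE2, cyclin E2, 0.82 ± 0.19 (adjusted p = 0.0368), from edgeR. The median over the 51 was -0.12 with shRNA-143 and -0.094 with shRNA-146, where those of all tested genes were 0.0045 and 0.022.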

How the data were processed

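The authors deposited raw counts per gene for 9 libraries, with gene lengths, and for each shRNA against control a table of log2 fold changes and p-values. Those tables also hold counts that the authors divided by a size factor per library (normalised signal) and FPKM values the authors made per gene length, neither of which was used. Per the submitters' processing notes, hg38, fastp, STAR 2.5, featureCounts and DESeq2 were used, with no roles named. Genes kept by filterByExpr (14975, with at least 99.9% of counts) were TMM scaled, and edgeR 4.0.16 in R 4.3.3 gave quasi-likelihood tests (glmQLFit, robust, glmQLFTest) from 1 fit of 9 libraries, with 6 residual degrees of freedom. Benjamini-Hochberg adjustment covered all tested genes, with a threshold of 0.05. SEs were derived from each fold change and its F statistic. Total counts ran from 40047459 to 44669709, and no library repeated another of its own group (chi-square per degree of freedom 22.6 to 436). Pairs from different groups were not compared in this way.

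The labels number replicates 1 to 3 without saying what a number shares or whether cultures were separate, so p-values cover only the spread among these libraries, possibly a technical one. As a check of pairing, deviations from group means (log2 CPM, prior count 2) of same-numbered libraries correlated at 0.252 to 0.758 in all 9 pairs, past a criterion of 0.1, against -0.678 to 0.535 for different numbers. A fit with the number as a block, with 4 residual degrees of freedom, is therefore given too. The pairing comes from the data, and numbers 2 and 3 were not clearly set apart.

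The 59 genes and the other lists were chosen with earlier results of these data known. Named are genes that passed in either fit, fixed representatives of each role, and the 5 highest and 5 lowest per length. Other genes were named after their values were seen. Alternatives were DESeq2 1.42.0, limma-voom (limma 3.58.1), other scalings, no filter, a gene length correction and leaving out each library. Scripts were tested on simulated data.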

Additional observations from a re-analysis of the deposited data

Results flagged for a closer look

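CDK1 differed between the shRNAs, in that shRNA-146 against shRNA-143 gave a log2 difference of 0.99 ± 0.15 in the fit with the replicate block (adjusted p = 0.00988, edgeR's quasi-likelihood test, n = 3 libraries per group). All 3 shRNA-146 libraries were above all 3 shRNA-143 libraries. Without the block the adjusted p was 0.721.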

How the results depend on the processing

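With the replicate number as a block, the number of the 59 genes called with shRNA-143 was 3, against 0 without it, and was 3 with RLE scaling, 5 with library size alone, 4 with upper quartile, 6 with no filter, 8 in DESeq2, 3 in limma-voom and 4 with a gene length correction, beside 3.17%, 3.24%, 2.76%, 3.32%, 4.5%, 6.75%, 3.13% and 2.77% of all genes tested. With shRNA-146, in the same order, it was 2, 3, 4, 3, 6, 5, 3 and 1, beside 4.42%, 4.54%, 5.58%, 4.41%, 5.99%, 9.35%, 4.73% and 3.28%, for the mean of both 5, 6, 4, 6, 9, 9, 5 and 2, beside 5.74%, 5.74%, 5.73%, 6.19%, 7.06%, 10.8%, 5.52% and 4.25%, and for shRNA-146 against shRNA-143 1 in all 8, beside 1.17% to 2.47%. Leaving out a library gave 0 to 11 with shRNA-143, 0 to 8 with shRNA-146 and 0 to 17 for the mean, highest each time without shRNA-146 replicate 1 and with the block, where 13.7%, 11.4% and 20.1% of all genes were called, and 0 to 1 between the shRNAs. Without the block, none of the 59 was called in any of the other settings. The cause was not tested. Of 185 genes in the other lists, 4, 3, 5 and 1 were called with the block in the order of comparisons above (2.16%, 1.62%, 2.7% and 0.541%, beside 3.17%, 4.42%, 5.74% and 1.2% of all genes), and 0 without. NFATC2, in the same order of settings with the block, had -2.27, -2.26, -2.19, -2.29, -2.28, -2.26, -2.19 and -2.39 with shRNA-143, and -1.96, -1.96, -1.83, -1.995, -1.97, -1.96, -1.91 and -2.10 with shRNA-146, and passed in each. With the block and a library left out, NFATC2 ran from -2.52 to -2.015 with shRNA-143 and from -2.15 to -1.69 with shRNA-146, and passed in 9 of 9 fits each. Without the block these ranges were -2.415 to -1.65 and -2.27 to -1.48, and NFATC2 passed in 0 of 9 fits each.

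The median log2 fold change of the 59 with shRNA-146 (0.12) was 0.26 with library size scaling, 0.086 with upper quartile and 0.084 in limma-voom. With the block it was 0.078, and then 0.083 with RLE, 0.21 with library size, 0.043 with upper quartile, 0.068 with no filter and 0.083 in DESeq2. With a library left out it ran from 0.039 to 0.16 with the block and from 0.0997 to 0.21 without it. For the mean of both (0.094) it was 0.21 with library size, 0.16 with the block and library size, and 0.022 with the block and upper quartile. With a library left out it ran from 0.026 to 0.14 with the block and from 0.027 to 0.16 without it. The medians with shRNA-143 and between the shRNAs ran from -0.029 to 0.14 and from -0.038 to 0.17 with a library left out, over fits without and with the block.

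Some log2 fold changes changed sign between settings or with a library left out. The ranges below with a library left out pool fits without and with the block. Some of them crossed zero without the block alone or with it alone. MKI67 with shRNA-143 ran from 0.068 to 1.05 without the block and from -0.099 to 0.59 with it. PLK1 with shRNA-146 was 0.13 under library size scaling without and 0.13 with the block, NDC80 with shRNA-143 was 0.047 and 0.0047 there, and with the block and length correction CENPF and TOP2A with shRNA-146 were -0.096 and -0.012. KIF11 with shRNA-143 was -0.011 in limma-voom and, with the block, -0.022 with upper quartile, -0.0061 with no filter, -0.0032 in limma-voom and -0.019 with the length correction. With a library left out, log2 fold changes ran through zero with shRNA-143 at -0.26 to 0.024 for CCNA2, -0.022 to 0.22 for BUB1, -0.044 to 0.91 for CENPF, -0.18 to 0.12 for NDC80, -0.13 to 0.37 for KIF11, -0.023 to 0.31 for KIF20A, -0.055 to 0.55 for TPX2 and -0.099 to 1.05 for MKI67, and with shRNA-146 at -0.15 to 0.21 for CCNB1, -0.26 to 0.30 for CDK1, -0.061 to 0.042 for PLK1, -0.16 to 0.78 for CENPF, -0.042 to 0.15 for NDC80, -0.072 to 0.33 for TOP2A and -0.061 to 1.07 for MKI67. Libraries of a group differed beyond counting error (chi-square per degree of freedom 22.6 to 436).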
